A study of Mus musculus with 2 samples.

Results

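Myoglobin and 8 genes of fatty acid use were followed in maps of open chromatin from the gastrocnemius, the large calf muscle of the mouse. The 9 genes were Mb, Fabp3, Cd36, Lpl, Cpt1a, Cpt1b, Acadl, Hadha and Pdk4, taken by name from 21826 protein-coding genes of GENCODE M21. Each was described over a locus made of its gene body and 20 kb on either side in mm10. The assay was DNase-seq, in which DNase I releases fragments from accessible DNA of nuclei and their ends are sequenced. All tissue came from male B6CASTF1/J mice, hybrids of the B6 and CAST strains, aged 10 days. There was 1 group of 2 libraries, biological replicates 1 and 2, with 1 donor record between them. The sample labels name 3 males and do not say whether their tissue was pooled, so a difference between the libraries shows only the spread between these samples, which may be technical. Values are given for replicate 1 and then replicate 2.

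Muscle burns fatty acids that lipoprotein lipase (Lpl) frees from blood lipids at the capillary wall, that Cd36 takes up and that the binding protein Fabp3 carries through the cytosol. Carnitine palmitoyltransferase passes them into mitochondria, through the Cpt1b isoform in adult muscle and heart and the Cpt1a isoform in liver and many other tissues, where Acadl and the trifunctional protein subunit Hadha take part in beta-oxidation. Pdk4 shuts off pyruvate dehydrogenase and so spares glucose when fat is burned, and myoglobin (Mb) stores oxygen in oxidative fibres. Open chromatin at these genes does not measure their RNA, and in bulk tissue fewer open cells of a type and less openness per cell cannot be told apart.

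Regulatory sequences are shown first for genes chosen to contrast roles: the oxygen store, both isoforms of the carnitine shuttle, the glucose switch and the lipase. Each is 200 bases long, read 5′ to 3′ on the strand of the gene from the mm10 (GRCm38) genome. Promoter sequences end 1 base before the coding start that carried the peak. Capitals mark bases inside a footprint, a short stretch protected from cleavage, of both libraries.
Mb promoter, chr15:77022788-77022987, minus strand: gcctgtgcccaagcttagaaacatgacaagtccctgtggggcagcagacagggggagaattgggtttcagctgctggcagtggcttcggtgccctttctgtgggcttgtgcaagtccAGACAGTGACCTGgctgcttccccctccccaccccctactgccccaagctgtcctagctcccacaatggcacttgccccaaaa
Cpt1b promoter, chr15:89425864-89426063, minus strand: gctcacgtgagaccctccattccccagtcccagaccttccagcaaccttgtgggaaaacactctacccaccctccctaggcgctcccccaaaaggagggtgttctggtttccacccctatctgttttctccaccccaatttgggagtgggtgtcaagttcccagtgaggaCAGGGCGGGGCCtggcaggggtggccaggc
Cpt1a promoter, chr19:3323085-3323284, plus strand: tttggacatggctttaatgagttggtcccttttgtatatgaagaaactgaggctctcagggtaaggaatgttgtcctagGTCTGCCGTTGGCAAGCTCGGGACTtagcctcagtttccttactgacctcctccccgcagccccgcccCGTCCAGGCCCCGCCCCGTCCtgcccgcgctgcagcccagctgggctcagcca
Pdk4 promoter, chr6:5496310-5496509, minus strand: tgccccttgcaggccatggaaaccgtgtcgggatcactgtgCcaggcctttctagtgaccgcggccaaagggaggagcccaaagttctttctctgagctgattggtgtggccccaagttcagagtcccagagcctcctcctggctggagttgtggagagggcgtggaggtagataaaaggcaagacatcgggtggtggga
Cpt1a intron, upper site, chr19:3325421-3325620, plus strand: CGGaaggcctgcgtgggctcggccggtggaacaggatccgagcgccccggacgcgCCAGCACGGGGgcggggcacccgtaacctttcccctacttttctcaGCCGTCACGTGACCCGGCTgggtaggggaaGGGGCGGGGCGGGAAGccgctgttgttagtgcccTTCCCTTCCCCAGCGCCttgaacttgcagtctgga
Cpt1a intron, lower site, chr19:3323981-3324180, plus strand: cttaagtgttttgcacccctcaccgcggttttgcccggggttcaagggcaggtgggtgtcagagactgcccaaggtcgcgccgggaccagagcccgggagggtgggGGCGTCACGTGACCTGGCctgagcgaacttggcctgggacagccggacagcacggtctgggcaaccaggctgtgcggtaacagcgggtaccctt
Lpl intron, chr8:68903051-68903250, plus strand: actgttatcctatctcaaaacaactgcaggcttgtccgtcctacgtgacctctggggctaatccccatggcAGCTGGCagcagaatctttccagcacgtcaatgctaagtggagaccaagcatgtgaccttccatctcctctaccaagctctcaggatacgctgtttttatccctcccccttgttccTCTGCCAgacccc
Mb intron, chr15:77036751-77036950, minus strand: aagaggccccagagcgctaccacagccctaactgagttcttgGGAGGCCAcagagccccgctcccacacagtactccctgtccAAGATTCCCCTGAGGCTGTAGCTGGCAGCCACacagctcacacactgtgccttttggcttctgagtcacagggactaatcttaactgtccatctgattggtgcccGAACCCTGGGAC

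In the Mb promoter the capitals lay 83 to 71 bases before the start and covered tgacct, the reverse of AGGTCA, the core that nuclear receptors read. Those letters were in the 200 bases before the start of 9.61% of all protein-coding genes and 7.31% of those with an open promoter. Another footprint, seen in replicate 2 alone, began at cagctg 133 bases before the start, the E-box form CAGCTG read by myogenic factors, which 10.1% of all promoters held. Also in replicate 2 alone, a footprint 61 to 50 bases before the start covered the CACCC box CCACCC, which 25.7% of all promoters held. In the Cpt1b promoter the shared footprint lay 30 to 19 bases before the start over the GC box GGGCGG, which 42.2% of all and 59.1% of open promoters held. Cpt1a had 2 shared promoter footprints, and the nearer one covered a GC box too. In the 200 bases before the Pdk4 start the footprints of the libraries met at 1 base only, so their positions did not repeat there, although each library had several. The promoter site extended beyond these bases, and its other footprints are not described here. A match is a description of these letters and no evidence that a factor was bound.

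Both intronic sequences of Cpt1a held a shared footprint centred on the same letters. At the upper site it ran 3189 to 3207 bases after the annotated 5′ end in replicate 2 and covered gccgtcacgtgacccggct, and at the lower site 1754 to 1771 bases after it in replicate 1, over ggcgtcacgtgacctggc. Both hold TCACGTGA, a palindrome around the E-box CACGTG that helix-loop-helix factors with a leucine zipper read. TCACGTGA was in the central 200 bases of 0.199% of all shared sites with a midpoint over 500 bp from every start (distal sites), 2 of them among the 54 such sites of the 9 loci, and in 0.962% of promoters. These letters were searched only after the footprints had been seen. Cpt1b also had TCACGTGA, 198 to 191 bases before its start, outside any footprint.

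Open chromatin at the starts was common among the 9 genes, with lower values at Mb, Fabp3, Lpl and Cpt1b than at Cpt1a, Acadl, Hadha and Pdk4. A promoter counted as open when any peak lay within 500 bp of a coding transcript's start, and the tallest of these peaks gave its value, in the authors' depth-scaled signal. By that rule 8 of the 9 promoters were open in both libraries, against 66.0% of all protein-coding genes. In replicate 1 alone 8 were open, against 67.8%, and in replicate 2 alone 9, against 68.0%. The median over the 8 was 4.59, against 5.58 over all 14401 open promoters. Over the genes open in replicate 1 alone, the same 8, the median was 2.80. Over the 9 open in replicate 2 alone it was 2.91. All promoters open in both libraries had medians of 4.63 and 6.43 in replicates 1 and 2. With a window of 1000 bp the median was 2.26, again over 9 genes. Cd36 was the added gene each time, so these medians do not cover the same genes. The median over the 8 falls in a wide gap, since 4 genes had means from 1.27 to 2.26 and the other 4 from 6.92 to 8.02.

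**Figure D1:**
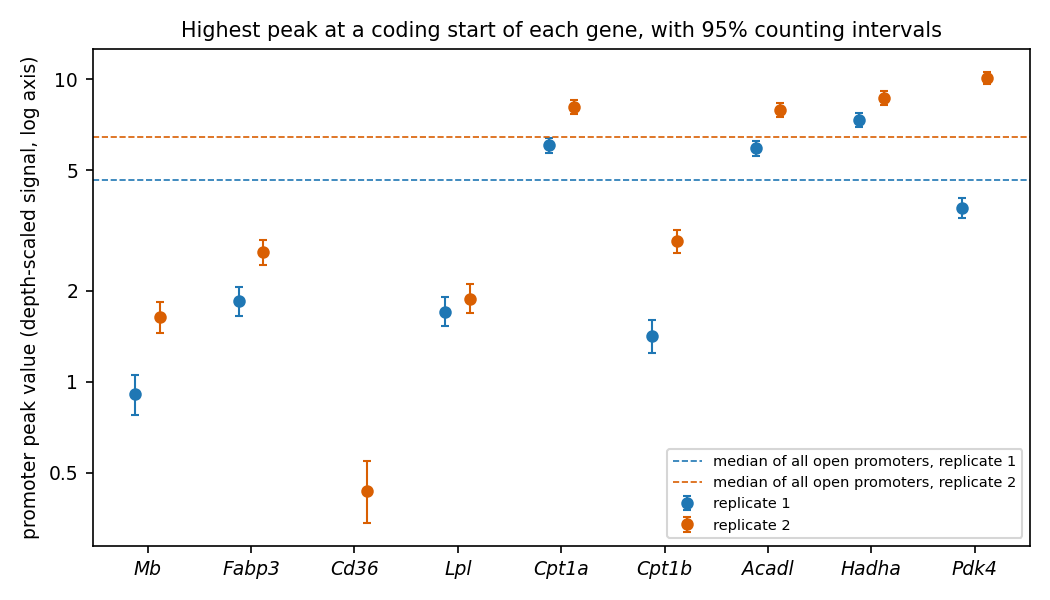
Highest peak value at a coding start of each of the 9 genes in replicate 1 (blue) and replicate 2 (orange), on a log axis of depth-scaled signal. Bars are exact Poisson 95% intervals of the tag counts, and dashed lines are the medians of all open promoters (4.63 and 6.43). Mb, Fabp3, Lpl and Cpt1b lie under the lines in both libraries, Cpt1a, Acadl and Hadha above them, Pdk4 on different sides in each, and Cd36 has a point in replicate 2 only.

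Mb had a weak peak at an internal start. Its promoter value was 0.908 and 1.63, which rested on 167 and 278 tags, at the start at position 77022787 of chromosome 15 (minus strand), 27883 bp inside the annotated gene. The annotated 5′ end, at 77050670, had a peak of 0.933 in replicate 2 and none in replicate 1. The promoter was at the 15.3th percentile of open promoters, counted from the lowest.

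The gene body of Mb held far higher sites than its starts did. An intronic site 13819 bp after the 5′ end (chr15:77036741-77036960), whose sequence is shown above, had values of 4.12 and 7.72. A second one 12689 bp after the 5′ end had 2.62 and 5.95, and another beyond the gene, 35509 bp after the 5′ end in an intron of Gm49540, had 2.04 and 3.89. Each was higher in replicate 2 than in replicate 1, and even the lower value of each exceeded the Mb promoter in the same library. On the minus strand, both intronic sites of Mb lie upstream of 77022787, the internal start that carried the promoter peak. For scale, the 90th percentile of shared sites over 500 bp from every start was 2.87, as the geometric mean of both values, and their median 0.870. The Mb locus had 21 sites, 17 of them in both libraries, the largest number in both among the 9 loci.

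Lpl and Cd36, which act in uptake, differed from each other in openness. The Lpl promoter on chromosome 8 had 1.71 and 1.88, and the peak lay about the first exon, 220 and 180 bp after the start by its midpoint. Other sites lay in the first 1000 bases of the gene, and one of them, 910 bp after the start, had 1.57 and 1.65. The intronic Lpl site shown above, 22660 bp after the start, had 1.27 and 3.11, a ratio of replicate 2 to replicate 1 of 2.45 (95% counting interval 2.10 to 2.88). It contained cagctg within a replicate 2 footprint that a shorter one of replicate 1 overlapped. Lpl sites 14271 bp before and 34450 bp after the start were 3.76 and 4.51 times higher in replicate 2, from values of 0.392 in replicate 1 at each.

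Cd36 had the least open chromatin of the 9 genes. No start had a peak in replicate 1, and in replicate 2 the starts at 17849792 and 17835717 of chromosome 5 had 0.434 and 0.346, on 74 and 59 tags. The 2 starts at the 5′ end had none in either library. Of the 8 sites in its 147112 bp, 2 were in both libraries: a weak intronic one with 0.283 and 0.387, and one beyond the gene, 112030 bp after the 5′ end, with 1.50 and 0.634. Peaks are listed only above a minimum, so a promoter without one was not detected as open at this depth.

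Fabp3 had a moderate promoter and 3 stronger or similar sites upstream. Its promoter value was 1.84 and 2.68 on chromosome 4, and the peak also covers the start of Gm10570, a predicted coding gene on the other strand 79 bp away, so the value cannot be given to 1 of them. A site 9134 bp upstream (chr4:130299341-130299580) had 2.50 and 4.29, above the promoter in both libraries. Another 16104 bp upstream had 4.14 and 1.85, a ratio of 0.45 (0.39 to 0.51), so the order of these 2 sites turned between the libraries. A nearer one, 1684 bp upstream with 1.42 and 2.24, held tgaccttga, the reverse of the ERRE letters TCAAGGTCA that estrogen-related receptors read and that 0.305% of distal sites hold, outside any footprint. It also held aggtca inside a footprint of both libraries. The site 624 bp upstream, with 1.27 and 1.09, was the only shared site of the Fabp3 locus with the DR1 pattern of PPAR and RXR, with 1 mismatch allowed, which 0.273% of distal sites hold.

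The isoforms of the carnitine shuttle had unlike chromatin. Cpt1b, on chromosome 15, had 1.41 and 2.91 at its start (position 89425863) and no shared site over 500 bp from a start in its whole locus. The higher peaks near it, with up to 6.37 and 8.56, lay at the shared start region of Chkb, which encodes a choline kinase, and C730034F03Rik, whose 5′ ends are 4045 and 3726 bp from that of Cpt1b. Cpt1a, on chromosome 19, had 6.05 and 8.09 at its second start, 951 bp inside the gene, and 1.70 and 2.14 at its first. The third start, 11391 bp in, had a peak of 1.38 in replicate 2 only.

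Within the first intronic stretch of Cpt1a the signal rose above the promoter. The upper site shown above (chr19:3325421-3325620), 3187 bp after the 5′ end, had 7.52 and 12.5 on 1383 and 2129 tags, the highest site of the 9 loci outside the starts of genes in each library. The lower site had 3.18 and 3.23, and one between them, 2837 bp after the 5′ end, had 2.46 and 2.86. The locus held 21 sites, and 15 were in both libraries. Tesmin, whose start lies 66523 bp from that of Cpt1a, had 6.90 and 7.22, about the level of the Cpt1a promoter in both libraries.

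The beta-oxidation genes had promoters above the median of open promoters in both libraries. Acadl, the long-chain acyl-CoA dehydrogenase, had a pair of peaks at its start on chromosome 1: the upstream one had 5.08 and 7.93 and the one 426 bp inside the gene 5.91 and 7.91. The promoter value of Acadl, 5.91 and 7.93, thus came from a different peak in each library. An intronic site 24596 bp after the Acadl start had 3.42 and 1.72, a ratio of 0.50 (0.44 to 0.58). Hadha had 7.35 and 8.68 from a single peak on chromosome 5. That peak also covers the start of Hadhb, the other subunit of the trifunctional protein, which is transcribed the opposite way 86 bp apart, so the 2 genes have 1 value. The highest other site of the Hadha locus, 40591 bp after its start, had 4.07 and 3.33 and lay in an exon of Garem2, a neighbouring gene.

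Pdk4 showed the widest gap between the libraries among the 8 promoters open in both. Its promoter on chromosome 6 had 3.75 and 10.1, on 689 and 1721 tags, in a site of 440 bp that held 9 and 11 footprints. A second peak, centred 198 bp inside the gene, had 2.75 and 3.29, so the libraries differed far less there. Upstream sites 13582 and 13172 bp before the start had 0.794 and 2.10, and 1.17 and 2.11. The latter held a MEF2 pattern, present in 1.80% of distal sites, outside any footprint.

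**Figure D2:**
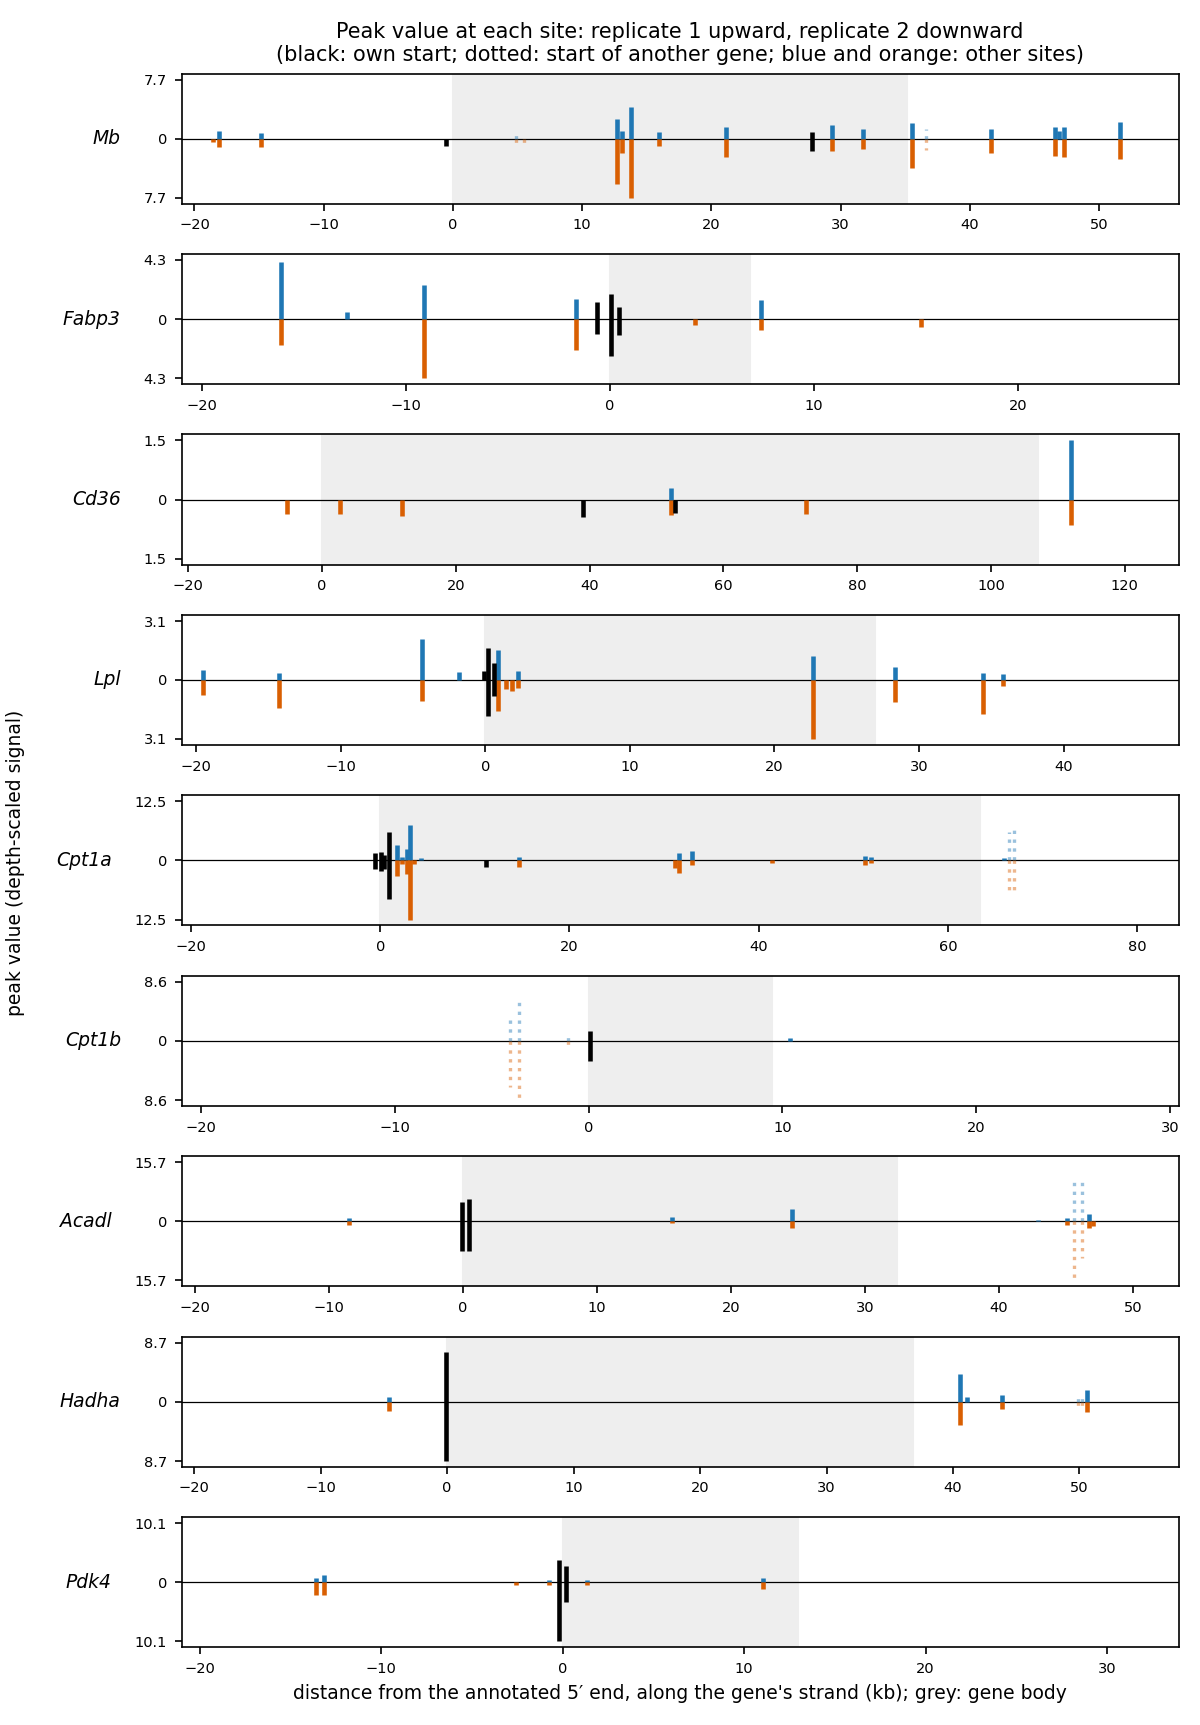
Peak value of every site in the 9 loci against distance from the annotated 5′ end in kb, with replicate 1 upward and replicate 2 downward in depth-scaled signal, on an axis of its own for each gene. Grey marks the gene body, black bars own coding starts, dotted bars starts of other genes and coloured bars all other sites. The tallest Mb and Cpt1a bars stand in the gene body (7.72 and 12.5 in replicate 2), while Hadha and Pdk4 are tallest at their starts and Cd36 is nearly empty.

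Over the 9 loci, 691 kb in all, replicate 1 had 88 peaks and replicate 2 had 98. Of these, 79 of each, 89.8% and 80.6%, overlapped a peak of the other library, against 78.2% and 64.1% of all peaks. Merging overlapping peaks gave 107 sites, of which 79 (73.8%) were in both libraries, against 54.0% of all sites. Of the 107, 74 had no part within 500 bp of an annotated start, 52 of them in both libraries, and 2 more shared sites reached into such a window while their midpoints lay outside it. Of the 79 shared sites, 41 (51.9%) were higher in replicate 2 beyond counting error, against 45.6% of all shared sites, and 11 (13.9%) in replicate 1, against 17.0%. After division by the median ratio of all shared sites, 1.18, 32 (40.5%) were higher in replicate 2, against 32.6%, and 19 (24.1%) in replicate 1, against 29.1%, so the counts depend on the scaling. Footprints numbered 225 and 260 in the peaks of the loci, or 13.9 and 13.7 per kb of peak, against 11.9 and 11.8 per kb over all peaks. The merged sites held 237 and 278 footprints. Of these, 152 (64.1%) of replicate 1 and 146 (52.5%) of replicate 2 overlapped one of the other library, near the 59.8% and 49.3% over all footprints.

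Listed bases, those whose cleavage passed the authors' FDR of 0.05, gave a measure that does not require a peak at a start. They were counted over the whole locus, starts of the gene and of its neighbours included. The Acadl locus, for example, held the start of Kansl1l, with promoter values of 11.1 and 15.7. The measure thus describes the locus and not the gene alone. Listed bases made up a median of 5.53% of the 9 loci, as the mean of both libraries, against 2.77% over all protein-coding genes. Of the 9 genes, 8 lay above that median. Mb was highest with 6.90% and 8.24%, at the 88.7th percentile of all genes. Cd36 was lowest with 0.218% and 0.899%, at the 18.7th percentile, and its 2 values did not reach those of any of the other 8. Both Mb values also lay above every value of the other genes, the next being Lpl with 6.88% in replicate 2. Between Cd36 and Mb the lowest value was 3.82%, at Pdk4 in replicate 1, and the values of neighbours in the order of means overlapped, while genes farther apart, such as Hadha and Fabp3, did not.

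**Figure D3:**
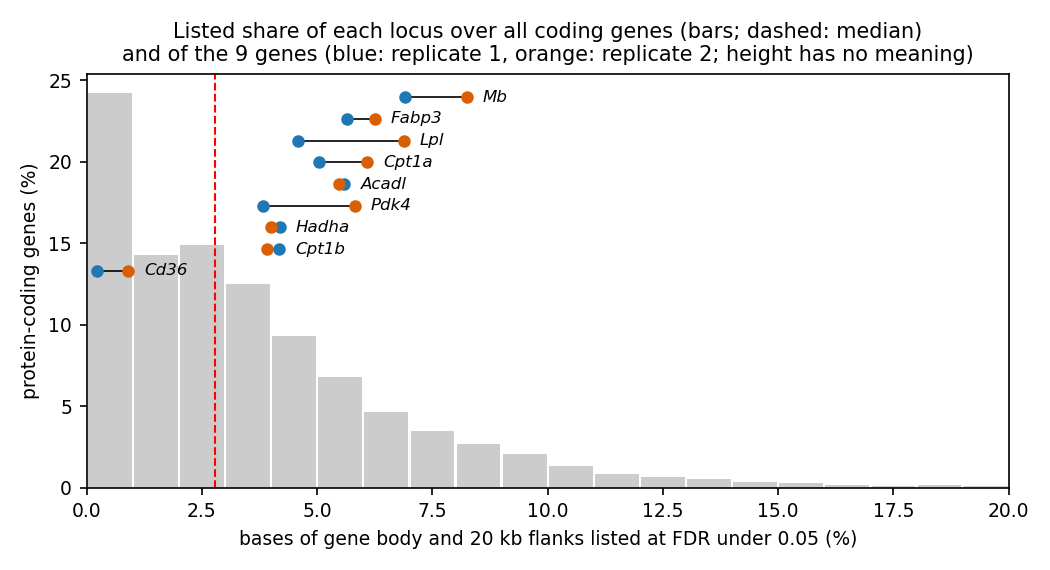
Share of bases listed at an FDR under 0.05 in each gene body with 20 kb flanks, in percent. Grey bars show all 21826 protein-coding genes as a percentage per 1% bin, the dashed line their median of 2.77%, and points each of the 9 genes in replicate 1 (blue) and replicate 2 (orange). Cd36 alone lies to the left of the median, and Mb farthest to the right.

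CpG content at the starts separated the genes in part by value. The ratio of observed to expected CpG in 500 bp on either side was under 0.4 at Mb, Cd36 and Cpt1b, a class of 7975 genes of which 18.1% had a promoter open in both libraries, with a median value of 1.31. Mb and Cpt1b were thus open in a class where most promoters had no shared peak, at values of 1.27 and 2.16 as means of both libraries. Lpl and Pdk4 were in the class from 0.4 to 0.6, which was open in 80.2% with a median of 2.88, and Pdk4 stood above it at 6.92. Fabp3, Cpt1a, Acadl and Hadha were at 0.6 or more, where 97.3% were open with a median of 7.24, and Fabp3 stood below it at 2.26.

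The libraries did not differ by the same factor at all 8 promoters. Replicate 2 exceeded replicate 1 by a median of 1.36 times over all open promoters. With exact conditional binomial intervals at 95%, which cover counting error only, 3 of the 8 were above that factor, against 38.2% of all open promoters, and 2 were below it, against 35.6%. Those above were Pdk4 with a ratio of 2.70 (2.47 to 2.95), Cpt1b with 2.06 (1.77 to 2.40) and Mb with 1.80 (1.48 to 2.19). Those below were Hadha with 1.18 (1.10 to 1.27) and Lpl with 1.10 (0.94 to 1.29), and the intervals of Fabp3, Cpt1a and Acadl held the factor. The Acadl ratio of 1.34 sets different peaks against each other: its upstream peak alone had 1.56 (1.44 to 1.70), above the factor, and the inner peak 1.34 (1.23 to 1.45). With a window of 1000 bp another peak gave the Mb value of replicate 1, and the promoter had 1.76 and 1.63, so the direction at Mb turned. These shares are close to the background, so the split describes the 2 libraries and is no finding about the genes.

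Markers of cell types moved between the libraries too. Over all protein-coding genes 66.0% of promoters were open in both libraries, and 38.2% of those were above the factor of 1.36 beyond counting error. All 10 skeletal muscle markers, among them Acta1, Ckm and Myod1, were open in both, with summed promoter values of 35.8 and 63.8. Of the 10, 9 had ratios above the factor beyond counting error (median 1.86, from 1.35 to 3.07). Such ratios were not particular to muscle markers. Among 62 open promoters of other pathway genes, described below, 33 were above the factor and 11 below it (median ratio 1.48). In their pyruvate dehydrogenase list 7 of 9 were above it (median 1.71). The 9 endothelial markers summed to 11.1 and 13.2 with 8 open in both, and the 9 adipocyte markers to 10.1 and 10.9 with 4 open in both and none for Adipoq, Cidec, Retn and Cfd in either. No open marker of these 2 lists was above the factor beyond counting error, and 3 endothelial and 2 adipocyte markers were below it. Within that error Tie1 (0.489 and 0.833), Tek (0.794 and 1.29), Kdr (1.48 and 2.12), Cdh5 (0.870 and 1.19) and Fabp4 (0.364 and 0.516) had ratios above it. The median ratio was 1.35 for the endothelial and 1.17 for the adipocyte list. Their median values were 1.42 and 2.12, against 4.49 for the muscle list, and lower values give wider intervals. The 7 macrophage markers summed to 0.353 and 2.35, with 1 open in both and none in either for Adgre1, Fcgr1 and Cx3cr1. Of the cardiac markers 2 of 6 were open in both (14.5 and 14.1 summed, of which Myl4 alone gave 13.9 and 13.1), with none for Myh6, Nkx2-5 and Myl7, and of the hepatocyte markers 1 of 7 (0.343 and 0.223), with none for Alb, Apoa1, Ttr, Fabp1, Hnf4a and Cyp2e1. Their part in the ratios at Pdk4, Cpt1b and Mb was not tested.

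**Figure D4:**
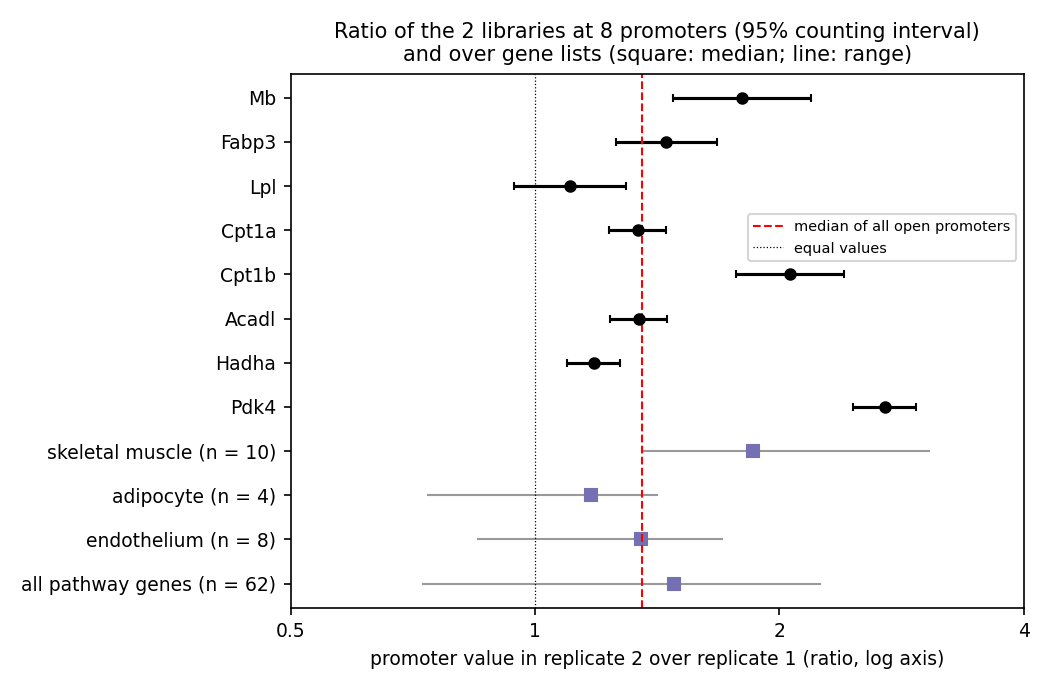
Promoter value in replicate 2 over replicate 1 on a log axis. Points are the 8 promoters open in both libraries with 95% counting intervals, squares the medians of gene lists with lines over their range, the dashed line the median of all open promoters (1.36) and the dotted line equal values. Pdk4, Cpt1b and Mb lie to the right of the dashed line, and Lpl and Hadha to its left. The medians of the skeletal muscle markers (1.86) and of the pathway genes (1.48) also lie to its right.

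Other genes of the pathway were mostly open, and several far more so than the 9. Of 73 genes, 62 (84.9%) had promoters open in both libraries, against 66.0% of all protein-coding genes, with a median value of 7.12, against 5.58. Their median CpG ratio was 0.656, in the class where 97.3% of all promoters were open. All 14 further beta-oxidation genes were open, led by Acadm, the medium-chain dehydrogenase, with 11.7 and 19.3. Hadhb, among the 14, has the same peak as Hadha and so adds no separate value. All 8 genes of the carnitine shuttle and of malonyl-CoA control were open, led by the carnitine transporter Slc22a5 with 12.3 and 20.2, while Cpt1c, the third isoform, had 4.22 and 4.51. All 5 acyl-CoA synthetases were open, with Acsl1 at 12.0 and 18.5 and Acsl6 at 0.941 and 0.828.

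Uptake, lipases and binding proteins were less uniform. Of 13 uptake and lipase genes 9 (69.2%) were open in both libraries, near the 66.0% of all protein-coding genes. Pnpla2, the triglyceride lipase of fat stores, was at 9.28 and 13.5. The liver transporter Slc27a5 and the hepatic lipase Lipc had no promoter peak, and Gpihbp1, which holds Lpl at the capillary wall, had 0.552 in replicate 2 only. Of 7 binding proteins 4 (57.1%) were open in both, against the same 66.0%. The median CpG ratio of the 7 was 0.263, in the class where 18.1% of all promoters were open. The acyl-CoA binding protein Dbi had 9.73 and 18.4, Fabp5 4.08 and 6.62, Fabp7 1.51 and 1.55, and the adipocyte form Fabp4 0.364 and 0.516. Fabp1, Fabp2 and Fabp6 of liver and gut had none.

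The glucose switch and the receptors were open throughout, against 66.0% of all protein-coding genes. Their median CpG ratios were 0.731 and 0.733, in the class where 97.3% of all promoters were open. All 9 further genes of the pyruvate dehydrogenase switch were open, and of the sister kinases Pdk1 had 15.9 and 26.0, Pdk2 6.25 and 13.1 and Pdk3 1.13 and 2.37. In both libraries Pdk4 thus lay between Pdk3 and Pdk2. The pyruvate carrier subunit Mpc2 had 18.2 and 24.9. All 11 receptors and coactivators of the pathway were open, with Esrra (15.2 and 28.2), Rxrb and Ppard highest and Ppargc1a, a coactivator of oxidative genes, at 0.653 and 0.822. Among the other globins Cygb had 1.76 and 2.15, above Mb in both libraries, and Hba-a1, Hba-a2, Hbb-bs and Hbb-bt had no promoter peak. The median CpG ratio of the 6 other globins was 0.182, in the class where 18.1% of all promoters were open.

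**Figure D5:**
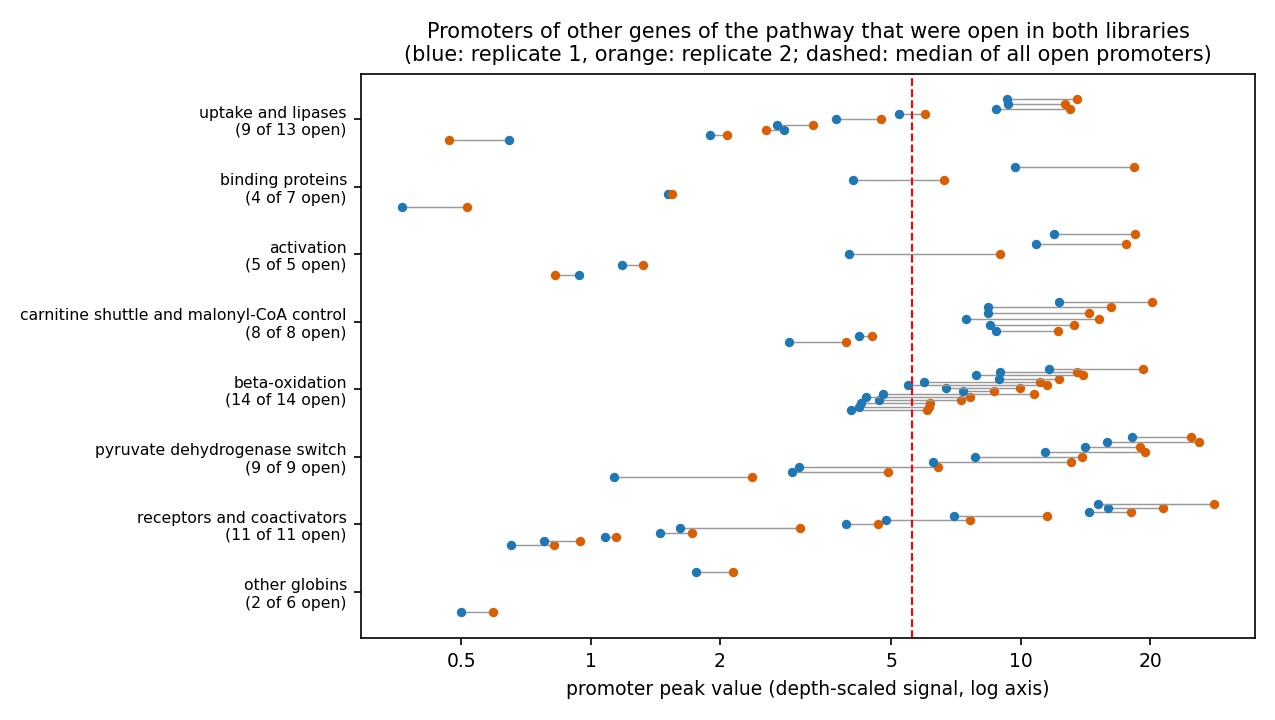
Promoter values of the other pathway genes open in both libraries, by role, on a log axis of depth-scaled signal (blue replicate 1, orange replicate 2, each pair joined by a line). The dashed line is the median of all open promoters, 5.58. In replicate 1 the beta-oxidation genes lie close together, from 4.04 to 11.7, while receptors and coactivators spread from 0.653 to 16.0 and binding proteins from 0.364 to 9.73.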

How the data were processed

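DNase-seq was made from 1 group of 2 libraries. According to notes deposited beside the data, peaks, footprints and cleavage FDR were made per library from filtered alignments to mm10. Names of the aligner and callers were not given in the sources used here. Peak values, as deposited, are a signal that the authors scaled to library depth: all values were whole multiples of 1 step, within 0.05 of a step (0.00544 and 0.00587), read here as 1 tag. The median peak had 134 and 122 tags. Tags can be PCR copies, so intervals cover counting error only, and library totals were not analysed here. The deposited FDR, a p-value type of number, is listed only under 0.05, and is 0.01 for each footprint, so footprint positions alone were used. Whether CAST alleles aligned less often was not tested.

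The wider of 2 peak sets per library was used (123255 and 150088 peaks), on chromosomes 1 to 19, X and Y. Peaks that overlapped by 1 bp or more formed a site. Motifs, 20 with 3 added later, were searched on both strands. They were searched in the 200 bases before a start and the central 200 bases of a site. The letters of MEF2 and CTCF patterns allow alternatives. CpG classes were cut at 0.4 and 0.6. Intervals were exact Poisson and exact conditional binomial at 95%; there were no tests between groups. Named were all 9 genes, up to 3 highest shared sites per locus over 500 bp from starts, coding neighbours, up to 3 highest promoters and up to 5 without a peak per pathway list, and markers without a peak. Further genes and sites (Cpt1c, Acsl6, Fabp4, Fabp5, Fabp7, Tie1, Tek, Kdr, Cdh5, Myl4, Gpihbp1, Pdk2, Pdk3, Ppargc1a, Cygb and weaker sites of Fabp3, Lpl and Pdk4) were added as relatives or for their values. Members, lists and motifs were chosen with earlier results of these data known. RefSeq promoters matched 7 of the 9 genes and were not used, since other starts carried peaks; sequences came from GRCm38. Python 3.11.15, numpy 2.4.6, pandas 2.3.3, scipy 1.17.1, pysam 0.24.0 and matplotlib 3.10.9 were used. The code was tested on simulated data.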

Additional observations from a re-analysis of the deposited data

How the results depend on the processing

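No paired analysis was possible because there was a single group. The number of the 9 promoters open in both libraries went from 7, with the stricter peaks or the 5′-end start alone, to 9, with a 1000 bp window or replicate 2 alone. The number of pathway promoters went from 58 to 63. The median promoter value was taken over those of the 9 genes counted as open under each setting, so its gene set changed. It moved from 4.59 to 6.92 with the stricter peaks and to 2.26 with a 1000 bp window or the 5′-end start alone. Without 1 library it was 2.80 to 2.91. It sits in a gap between low and high genes. With 50 kb flanks 124 sites were in both libraries, against 79. Median locus cover was 3.75% under an FDR of 0.001, 6.79% with 10 kb and 4.15% with 50 kb flanks, and 4.59% to 5.81% without 1 library, against 5.53%; under each of these settings 8 of the 9 genes stayed above the median of all genes. Footprints per kb were 15.5 with the stricter peaks, 14.1 with 10 kb and 12.4 with 50 kb flanks, against 13.8, and 13.7 to 13.9 without 1 library. Sites higher in replicate 2 went from 41 to 32 and sites higher in replicate 1 from 11 to 19 after division by the median ratio, a setting chosen after seeing the data. The stricter set dropped Mb in replicate 1 and Cd36 in replicate 2, the only library with a Cd36 promoter peak under the main setting.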

Other observations

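Of the 79 shared sites, 20 (25.3%) had overlapping footprints of at least 25 bp in both libraries, near the 24.3% of all shared sites within 500 bp of a start and the 22.3% of distal ones. Of these 20, 9 were higher in replicate 2, 7 in replicate 1 and 4 within counting error. In 6 of them the footprint held a looser form of the core read by CTCF, the architectural protein, with 1 mismatch allowed, and 3 of the 6 were higher in replicate 1. At Fabp3, 16104 bp upstream, at Lpl, 4390 bp upstream (2.18 and 1.10), and in the Acadl intron, 24596 bp after the start, lay these 3 footprints. They are shown on the strand of each gene, with capitals for the core.
Fabp3 upstream footprint, chr4:130292485-130292517, plus strand: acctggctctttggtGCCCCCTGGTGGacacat
Lpl upstream footprint, chr8:68876081-68876112, plus strand: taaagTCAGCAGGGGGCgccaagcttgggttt
Acadl intron footprint, chr1:66838668-66838699, minus strand: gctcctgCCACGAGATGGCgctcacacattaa

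The values of replicate 1 exceeded those of replicate 2 beyond counting error at all 3, which are among 11 such sites of the 79. The looser core was in the central 200 bases of 5 of those 11, of 4 of the 41 sites higher in replicate 2 and of 3 of the 27 within counting error. Over all shared sites these shares were 46.1%, 8.91% and 16.6%. Over all shared sites more than 500 bp from a start, the median ratio of replicate 2 to replicate 1 was 0.871 at 15127 sites with the looser core and 1.24 at 54384 without it. The core and the width were chosen after the values had been seen, and whether composition, depth or handling of the libraries had a part was not tested. The other 3 sites with the core at a wide footprint did not go this way. The Mb site 31749 bp after the 5′ end had 1.30 and 1.37 and the Hadha site 50621 bp after its start 1.78 and 1.56, both within counting error, and in the Mb gene body, 21149 bp after the 5′ end, a footprint of 28 and 29 bp with the core lay in a site of 1.46 and 2.44.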
